A study of Mus musculus with 4 samples.

Results

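The unfolded protein and ATF4 response was described through 38 genes in epididymal adipose tissue, the visceral fat beside the epididymis, of obese mice. The genes were chosen by symbol from the 24421 genes of the deposited matrices, by a rule that uses no measured value, although earlier results of these data were known when they were chosen. All 38 were found. They comprised 15 chaperones and folding enzymes of the endoplasmic reticulum (ER), 4 genes of ER-associated degradation, 8 sensors and transcription factors, 7 amino acid and one-carbon genes known as ATF4 targets, and 4 further targets of ATF4 and CHOP. The question was whether the chaperones and the amino acid genes differed in the same way between mice with and without a history of weight cycling.

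Secretory proteins fold in the ER with the help of chaperones, and adipocytes, macrophages and fibroblasts all secrete heavily. When unfolded proteins accumulate, the sensors IRE1, ATF6 and PERK act. IRE1 splices the Xbp1 transcript and ATF6 is cleaved to a transcription factor, and both raise chaperone and degradation genes. PERK phosphorylates eIF2, which slows translation in general while the ATF4 message is translated more. Amino acid shortage reaches ATF4 through another kinase, so that the ATF4 targets and the chaperones need not move together. ER stress in adipose tissue is known to accompany obesity and insulin resistance.

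The mice were male wild-type C57BL/6J. Weight-cycled mice (WC1) were put on high-fat diet (HFD) at 8 weeks of age for 8 weeks, changed to standard diet (SD) for 2 weeks, and returned to HFD for 6 weeks. Control mice (Ctrl) had uninterrupted HFD for 14 weeks beginning at 10 weeks of age, so all mice had spent 14 weeks on HFD and were 24 weeks old. Poly(A) RNA was sequenced in 2 libraries per group, and the labels do not say how many mice each library holds. The p-values below therefore measure only the spread between these libraries, which may be technical.

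The libraries held between 61465029 and 90965297 reads, and a member had between 258 and 136883 reads in a library. Levels are given as CPM, the deposited read counts relative to a rescaled library size. Marker genes are said to rise or fall where limma called them, beside 10.2% of all genes higher and 7.71% lower. Of 10 adipocyte marker genes 7 rose in WC1 and 0 fell, and the fold change was above 0 in all 10. Their summed level was 10274 to 11562 CPM in Ctrl and 18387 to 23482 CPM in WC1. Of 12 macrophage markers 5 fell and 0 rose, from sums of 13297 to 14464 CPM to sums of 6076 to 8695 CPM. The fold change was below 0 in all 12, and in 52.8% of all genes. Endothelial markers rose in 5 of 6 (350 to 397 CPM against 741 to 962 CPM), and mast cell markers fell in 6 of 7 (558 to 616 CPM against 65.9 to 83.8 CPM). Of 8 fibroblast markers 3 fell (10680 to 11038 CPM against 7697 to 9967 CPM). Of 9 B and plasma cell markers tested 2 rose, with sums of 192 to 207 CPM in Ctrl and 224 to 233 CPM in WC1 that were mostly Sdc1. Others stood out in WC1 2 alone, such as Jchain at 40 CPM there and 6.38 to 7.8 CPM in the other libraries. Of 6 mesothelial markers 0 were called by limma or by edgeR, also at an unadjusted p under 0.05, with sums of 90.5 to 122 CPM and 60.7 to 163 CPM. Of 8 epididymis markers 6 were at 0 in every library and the highest sum was 3.13 CPM, in WC1 1, of which Adam7 gave 3.02 CPM. In bulk tissue, fewer cells of a type and less RNA per cell cannot be told apart. The part that these shifts had in the results below was not tested.

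Response elements in the promoters of these genes are shown because they are the sequences through which ATF6, XBP1 and ATF4 are known to act on them. The 250 bases before the RefSeq gene start were searched on both strands, on GRCm38.p6, whose primary assembly is that of mm10. A promoter was in the table for 35 of the 38 members. The ER stress response element (ERSE) was searched as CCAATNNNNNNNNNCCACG, and it was present in 8 members out of 35 genes with it in the genome, or 0.13% of all 27025 genes with a promoter. Each sequence is printed 5′ to 3′ along the gene's strand with the fixed letters of the element in capitals. Where the element lies on the opposite strand the printed letters are its reverse complement.
Hspa5, chr2:34772015-34772053, plus strand: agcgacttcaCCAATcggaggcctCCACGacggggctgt
Hsp90b1, distal copy, chr10:86705628-86705666, minus strand: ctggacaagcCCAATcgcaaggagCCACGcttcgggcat
Hsp90b1, proximal copy, chr10:86705523-86705561, minus strand: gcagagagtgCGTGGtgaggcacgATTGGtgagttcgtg
Calr, chr8:84847065-84847103, minus strand: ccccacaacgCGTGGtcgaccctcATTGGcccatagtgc
Canx, chr11:50325790-50325828, minus strand: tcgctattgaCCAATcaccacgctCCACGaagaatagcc
Pdia6, chr12:17266481-17266519, plus strand: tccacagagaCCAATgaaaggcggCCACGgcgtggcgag
Dnajc3, chr14:118937817-118937855, plus strand: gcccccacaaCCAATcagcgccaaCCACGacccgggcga
Creld2, chr15:88819510-88819548, plus strand: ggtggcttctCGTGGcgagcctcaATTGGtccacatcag
Syvn1, chr19:6046522-6046560, plus strand: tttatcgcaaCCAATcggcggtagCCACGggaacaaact

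The ERSE was thus found in 7 of the 13 chaperone promoters available and in 1 of 4 degradation genes (Syvn1). The related element ERSE-II, searched as ATTGG and CCACG with any 1 base between them, was found in Herpud1 and in 0.037% of all genes. The C/EBP-ATF response element (CARE), searched as TGATGNAA, was found in members that included Herpud1, Atf3, Asns and Chac1, and in 3.91% of all genes. It is a short element and its presence is not rare. No match of one element overlapped a match of another in these promoters.
Herpud1, ERSE-II, chr8:94386367-94386397, plus strand: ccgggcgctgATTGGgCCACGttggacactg
Asns, CARE, chr6:7693215-7693242, minus strand: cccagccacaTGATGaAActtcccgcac
Atf3, CARE, chr1:191183426-191183453, minus strand: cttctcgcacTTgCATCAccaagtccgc
Chac1, CARE, chr2:119351039-119351066, plus strand: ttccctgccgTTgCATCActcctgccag

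**Figure D1:**
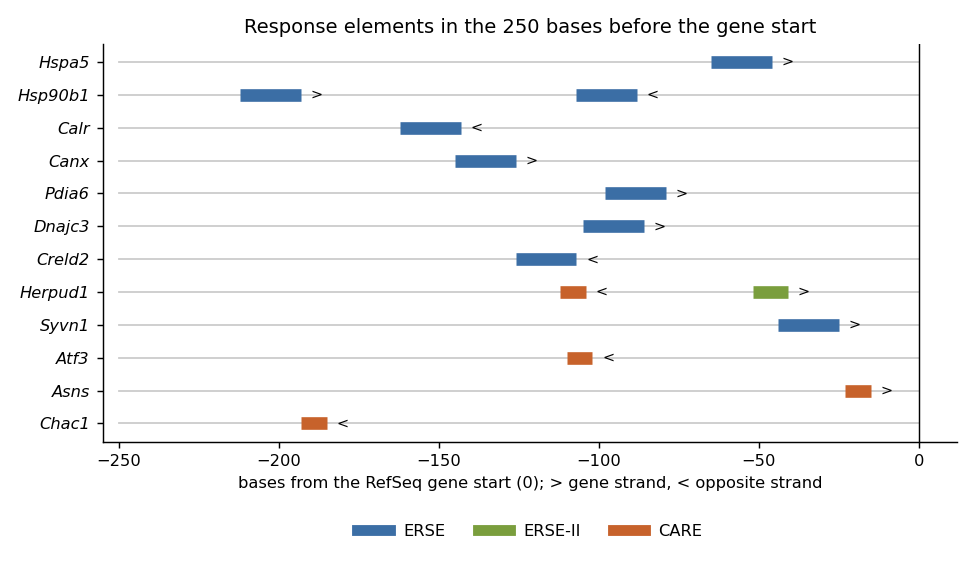
Positions of the ERSE, ERSE-II and CARE matches in bases from the RefSeq gene start (x axis) in 12 of the members; the arrow gives the strand. The ERSE of Hspa5 began 65 bases before the gene start and that of Calr 162 bases before it.

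The matches are letters found in a window, not sites shown to be bound. No match was found in the windows of Psat1, Phgdh and Sesn2, which says only that these letters are not there.

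All 38 genes were expressed, with a value above 0 in every library, and passed the limit for testing of 0.5 CPM in at least 2 libraries. Levels were compared between genes on the TPM scale, which corrects for transcript length. Calr, a calcium-binding chaperone of glycoproteins, had the highest mean level, 1345 TPM over the 4 libraries, ranging from 1174 to 1495 TPM. Hspa5 (BiP), the main ER chaperone, followed at 1037 TPM, between 948 and 1191 TPM. The ranges over libraries met, but Calr was the higher in each of the 4 libraries. Hsp90b1, Pdia3 and P4hb lay between 637 and 692 TPM. At the other end were Ern1, which encodes IRE1, at 7.51 TPM, and Chac1, a glutathione-degrading enzyme, at 6.58 TPM. Chaperone reads made up 0.73% and 0.799% of all reads in Ctrl and 0.65% and 0.619% in WC1.

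**Figure D2:**
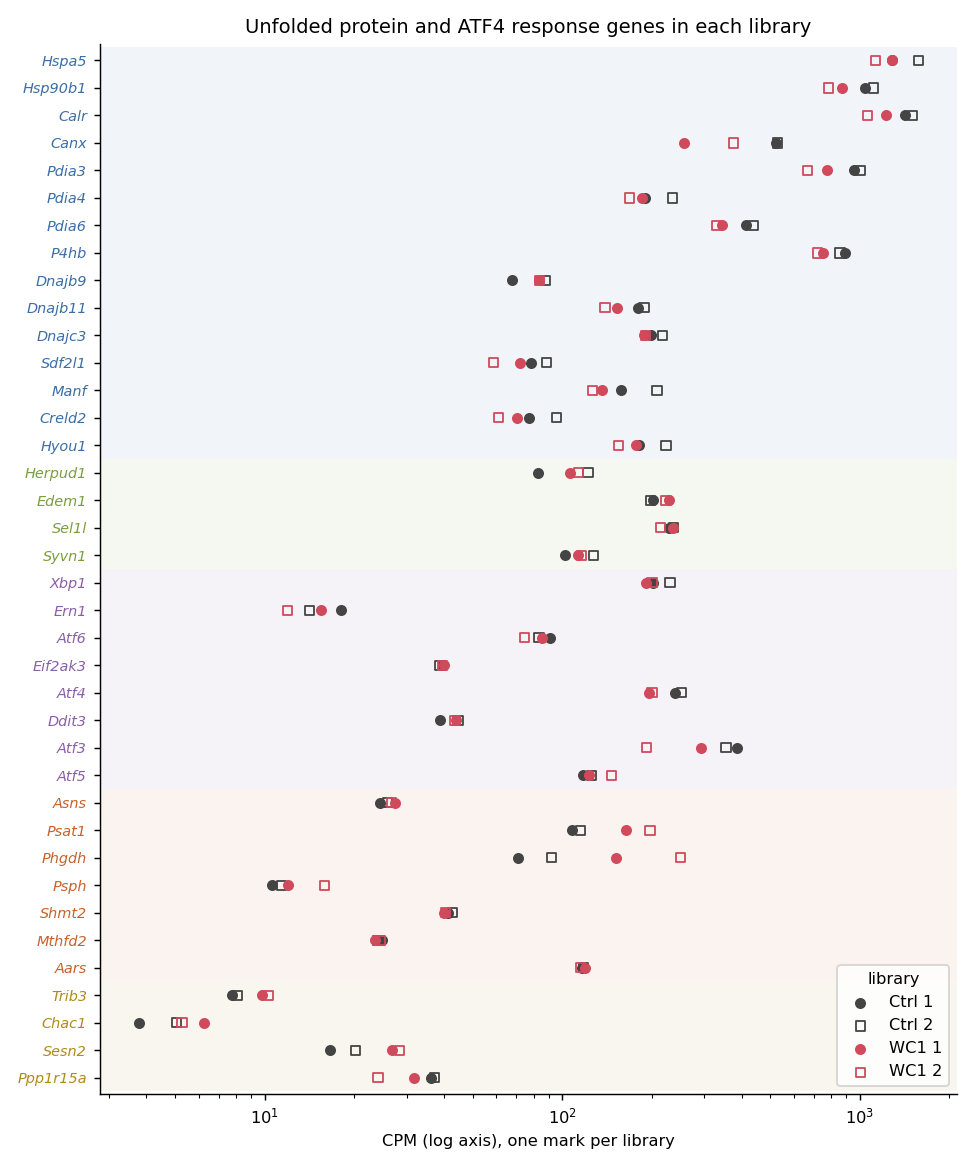
CPM of the 38 genes in each library (log axis), grey for Ctrl and red for WC1, with the genes grouped by class in shaded bands. Red marks lie to the left of the grey marks in 14 of 15 chaperones, and to the right in Psat1, Phgdh and Sesn2.

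Between WC1 and Ctrl, 4 of the 38 genes (10.5%) passed an adjusted p under 0.05 in limma, against 17.9% of all 14106 genes tested. Psat1, Phgdh and Sesn2 rose (3 of 38, with 10.2% of all genes higher) and Atf4 fell (1 of 38, with 7.71% of all genes lower). The groups did not overlap in 27 members, 19 lower and 8 higher in WC1, where 69.3% of all tested genes did not overlap (36.6% lower and 32.7% higher). The median log2 fold change, WC1 minus Ctrl, was −0.13 over the members and −0.02 over all genes, and the fold change was below 0 in 23 members (60.5%) and in 52.8% of all genes. Medians of the classes ran from −0.33 for the chaperones to 0.32 for the further targets of ATF4 and CHOP. With edgeR 3 members were higher and 0 lower (10.5% and 7.14% of all genes). DESeq2 called 3 higher and 10 lower, against 15.1% and 12.3% of all genes. On the TPM scale 5 were higher and 0 lower, against 14.6% and 4.13%. Without Ctrl 1 or without Ctrl 2, 0 members were called by limma, where 0.0425% and 0.0851% of all genes were. Without WC1 1, 5 members were higher and 13 lower (17.2% and 19.5% of all genes), and without WC1 2, 2 were higher and 5 lower (10.1% and 8.73%). In each fit with a library left out, the lone library of its group was assumed to vary like the other group. Fitting the replicate number as a block gave 6 calls, 3 in each direction, against 23.2% of all genes (12.5% higher and 10.6% lower).

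**Figure D3:**
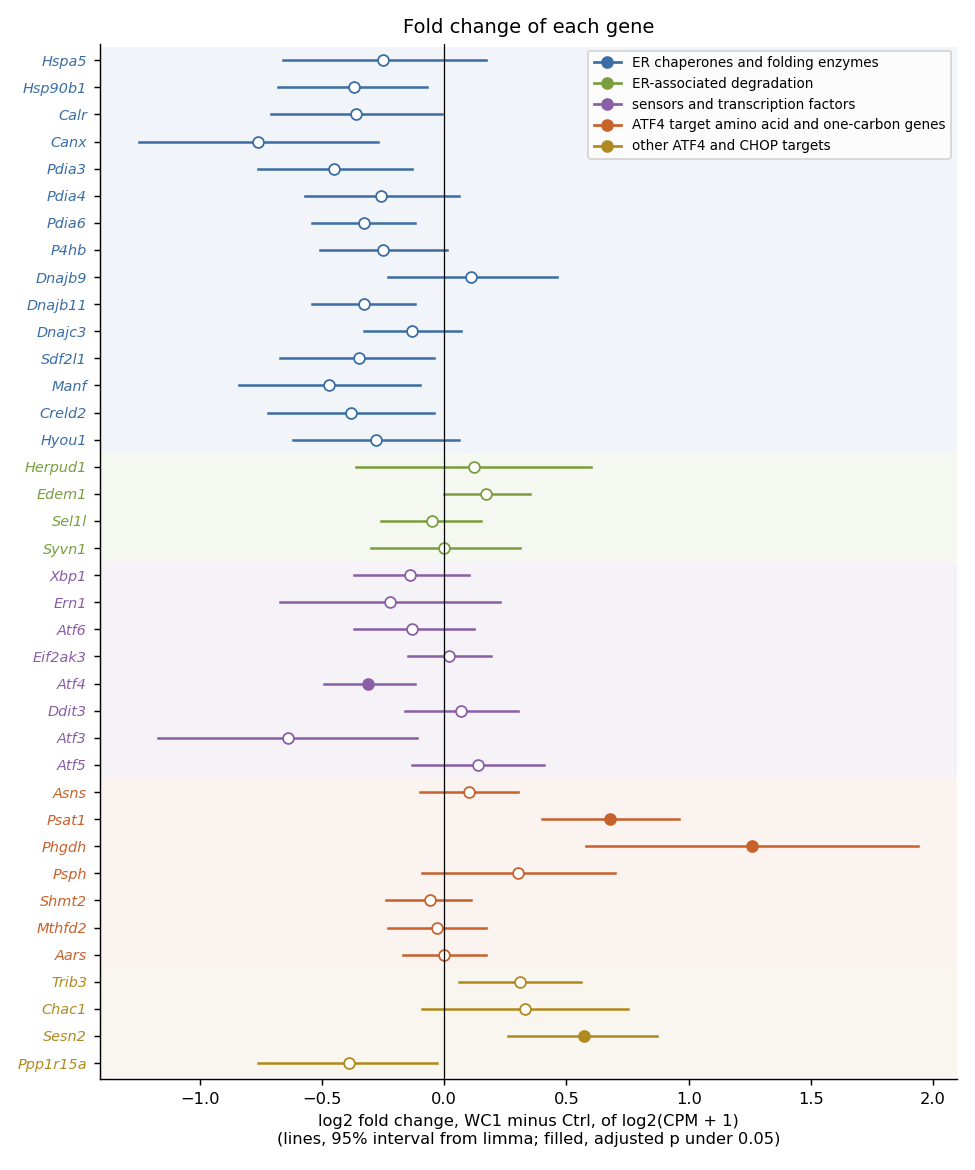
Log2 fold change, WC1 minus Ctrl, of each gene on the log2(CPM + 1) scale (x axis) with its 95% interval from limma; filled marks passed an adjusted p under 0.05. Chaperones sit left of 0 apart from Dnajb9, at 0.11, and Phgdh lies farthest right at 1.26.

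The chaperones and folding enzymes had lower levels in WC1 in 14 of 15 genes, by small amounts, and 0 of the 15 were called by limma or by edgeR. The groups did not overlap in 14 of them, all with WC1 lower, where 36.6% of all tested genes were lower without overlap. The median log2 fold change was −0.33 over the class. At an unadjusted p under 0.05, 9 of the 15 were lower and 0 higher, with 18.9% of all genes lower by that measure. Adjusted p-values ran from 0.051 to 0.56. DESeq2, which called 12.3% of all genes lower, did so for 8 of the 15, namely Hsp90b1, Calr, Canx, Pdia3, Pdia6, P4hb, Dnajb11 and Manf. In limma the count of chaperones called lower was 10 without WC1 1 (19.5% of all genes), 3 without WC1 2 (8.73%), and 0 without Ctrl 1 or without Ctrl 2. It was 1 with the replicate block (10.6% of all genes) and 1 with median-of-ratios scaling (1102 of all 14106 genes).

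Calnexin (Canx, chr11:50293957-50325673), the membrane-bound partner of calreticulin that holds glycoproteins while they fold, had the lowest fold change of the class over all 4 libraries. Its level was 523 and 528 CPM in Ctrl 1 and 2 and 256 and 375 CPM in WC1 1 and 2. The Ctrl libraries were almost equal, both WC1 libraries were lower, and the WC1 libraries were far apart. The log2 fold change was −0.76 ± 0.19 (SE, n = 2 per group; 95% interval −1.25 to −0.27), with an adjusted p of 0.054 in limma. Without WC1 1 the fold change was −0.48, and without WC1 2 it was −1.04. It was −0.77 without Ctrl 1 and −0.75 without Ctrl 2. With 1 library left in WC1 the fit takes its spread from Ctrl alone, so no p is given for these fits. Without WC1 1 the fold changes of Pdia3 (−0.56), Manf (−0.52), Sdf2l1 (−0.50) and Creld2 (−0.49) lay below that of Canx.

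Calr itself was at 1418 and 1505 CPM in Ctrl against 1226 and 1060 CPM in WC1, a log2 difference of −0.36 ± 0.14 (adjusted p = 0.13 in limma). Pdia3, the disulfide isomerase that works with these lectin chaperones, was at 956 and 1003 CPM in Ctrl against 775 and 666 CPM in WC1, or −0.45 ± 0.12 (limma adjusted p = 0.065). In both genes the groups were separate and WC1 2 was the lowest library. Among the other disulfide isomerases, Pdia6 was at 413 and 438 CPM against 344 and 331 CPM, a log2 difference of −0.33 ± 0.08 (adjusted p = 0.053 in limma). P4hb, the classical isomerase, was at 891 and 857 CPM against 752 and 719 CPM (−0.25 ± 0.10). Pdia4 was at 190 and 234 CPM against 185 and 168 CPM (−0.26 ± 0.12). Separation was thus wide in Pdia6 and P4hb and narrow in Pdia4, where Ctrl 1 and WC1 1 nearly met.

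Hspa5 was at 1286 and 1573 CPM in Ctrl against 1279 and 1125 CPM in WC1. Ctrl 1 and WC1 1 lay close together, and the log2 fold change of −0.25 ± 0.16 had a 95% interval from −0.66 to 0.17 (limma adjusted p = 0.32). Hsp90b1 (GRP94), the ER form of the heat shock protein HSP90, was at 1037 and 1111 CPM against 873 and 786 CPM, a log2 difference of −0.37 ± 0.12 (adjusted p = 0.087 in limma). Hyou1, which exchanges the nucleotide of BiP, was at 181 and 223 CPM against 177 and 154 CPM (−0.28 ± 0.13). Without Ctrl 2 the fold change was −0.10 for Hspa5, −0.13 for Hyou1 and −0.11 for Pdia4, and without Ctrl 1 it was −0.39, −0.43 and −0.40. Of the co-chaperones of BiP, 2 were lower without overlap and 1 was not. Dnajb11 was at 179 and 188 CPM in Ctrl against 153 and 139 CPM in WC1, −0.33 ± 0.08 on the log2 scale, with the smallest adjusted p of the class (0.051 in limma). Dnajc3 was at 198 and 217 CPM against 188 and 190 CPM (−0.13 ± 0.08). Dnajb9, known as a target of spliced XBP1, was at 67.7 and 88 CPM in Ctrl against 83.7 and 83.6 CPM in WC1. It was the 1 chaperone whose groups overlapped, a log2 difference of 0.11 ± 0.13 (adjusted p = 0.56 in limma).

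In 3 small, partly secreted members of the class the differences lay below its median of −0.33, that of Sdf2l1 only slightly. Manf, a secreted ER protein, was at 158 and 208 CPM in Ctrl against 136 and 126 CPM in WC1, −0.47 ± 0.14 on the log2 scale (limma adjusted p = 0.081). Creld2 was at 77.1 and 95.8 CPM against 70.6 and 61.1 CPM (−0.38 ± 0.13), and Sdf2l1, a partner of Dnajb11, at 78.5 and 88.3 CPM against 72 and 58.8 CPM (−0.35 ± 0.12). In each of these 3 genes Ctrl 2 was the highest library and WC1 2 the lowest. Without Ctrl 2 the fold changes were −0.27 for Manf, −0.23 for Creld2 and −0.27 for Sdf2l1, and without WC1 2 that of Sdf2l1 was −0.21. Over the class, Ctrl 2 was highest in 14 of 15 genes (21.9% of all tested genes), WC1 2 lowest in 12 (39.4%) and both in 11 (13.4%), a count made after the values were seen. The summed macrophage and fibroblast markers were also lowest in WC1 2, at 6076 and 7697 CPM, and their part in the chaperone difference was not tested. The median of the class stayed between −0.40 and −0.25 when any 1 library was left out. On the TPM scale, where the median of all genes was 0.10, or 0.12 higher than on CPM, the chaperone median was −0.19, and 14 of 15 lay below the median of all genes.

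The 4 degradation genes, which retrieve misfolded proteins from the ER for the proteasome, showed no call in limma, edgeR or DESeq2, and 0 passed at an unadjusted p under 0.05. Their median log2 fold change was 0.06. Herpud1, a membrane scaffold of the degradation complex, was at 82.8 and 122 CPM in Ctrl against 106 and 113 CPM in WC1, so the WC1 libraries lay inside the Ctrl range. Its log2 fold change was 0.12 ± 0.19, and −0.16 without Ctrl 1. In Syvn1, a ubiquitin ligase, WC1 was also inside the Ctrl range (102 and 127 CPM against 113 and 116 CPM), with an interval from −0.30 to 0.31. Its adaptor Sel1l was at 229 and 236 CPM against 235 and 214 CPM, with an interval from −0.26 to 0.15. Edem1, a lectin that directs glycoproteins to degradation, was at 202 and 198 CPM in Ctrl against 228 and 223 CPM in WC1. Its groups were apart, by 0.17 ± 0.07 on the log2 scale (adjusted p = 0.14 in limma). On the TPM scale it was called higher (0.31, limma adjusted p = 0.034), with 0.21 relative to the median of all genes there.

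Of the 8 sensors and transcription factors, Atf4 fell in limma (1 of 8, beside 7.71% of all genes lower) and the other 7 were not called by it. DESeq2, and limma with the replicate block, called 2 of the 8 lower, Atf4 and Atf3, and edgeR called 0. Atf4 (chr15:80255184-80257545) was at 239 and 251 CPM in Ctrl against 195 and 200 CPM in WC1. Libraries of a group were close, and the groups were well apart. The log2 fold change was −0.31 ± 0.07 (n = 2 per group; 95% interval −0.49 to −0.12), with an adjusted p of 0.046 in limma, 0.063 in edgeR and 0.013 in DESeq2. Without Ctrl 1 the limma adjusted p was 0.27 and without Ctrl 2 it was 0.3, with fold changes of −0.34 and −0.27. On the TPM scale the value was −0.17 (limma adjusted p = 0.18), or −0.27 relative to the median of all genes on that scale. Transcript level says nothing of ATF4 translation, a main point of control of this response.

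None of the sensors was called by limma, edgeR or DESeq2, and 0 of the 4 genes Ern1, Atf6, Eif2ak3 and Xbp1 was at an unadjusted p under 0.05. Eif2ak3, which encodes PERK, was between 38.7 and 39.9 CPM in all 4 libraries, with an interval for the log2 fold change from −0.15 to 0.19. Atf6 was at 90.6 and 83.4 CPM in Ctrl against 85.1 and 74.5 CPM in WC1, and its groups overlapped (−0.13 ± 0.09). Ern1 was at 18 and 14.1 CPM against 15.5 and 11.9 CPM, also overlapping (−0.22 ± 0.18). Xbp1 was at 202 and 230 CPM against 191 and 200 CPM. Ctrl 1 and WC1 2 almost met, and the fold change was −0.14 ± 0.09 on the log2 scale (adjusted p = 0.33 in limma). A gene-level count cannot separate spliced from unspliced Xbp1.

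Among the downstream factors, Ddit3, which encodes the pro-apoptotic CHOP, was at 38.8 and 44.6 CPM in Ctrl against 44 and 43.6 CPM in WC1, inside the Ctrl range (0.07 ± 0.09). Atf5 was at 117 and 125 CPM against 123 and 146 CPM (0.14 ± 0.10), and overlapped as well. Its fold change was 0.27 without WC1 1 and 0.02 without WC1 2. Atf3, induced by many kinds of stress and in macrophages by inflammatory signals, was at 386 and 355 CPM in Ctrl against 292 and 192 CPM in WC1. Both WC1 libraries were lower, and they differed from each other more than the Ctrl libraries did. The log2 fold change was −0.64 ± 0.21 (95% interval −1.17 to −0.11), with an adjusted p of 0.09 in limma, 0.1 in edgeR and 0.012 in DESeq2. Without WC1 1 it was −0.94, and without WC1 2 it was −0.34. It was −0.58 without Ctrl 1 and −0.70 without Ctrl 2.

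Of the 7 amino acid and one-carbon genes, Phgdh and Psat1 rose in limma, and 0 fell, beside 10.2% of all genes higher and 7.71% lower. These encode the enzymes of the initial steps of serine synthesis from a glycolytic intermediate. Phgdh (chr3:98313171-98339969), the entry enzyme, was at 70.9 and 91.9 CPM in Ctrl against 151 and 250 CPM in WC1. Both WC1 libraries were above both Ctrl libraries, and WC1 2 stood far above WC1 1. The log2 fold change was 1.26 ± 0.26 (n = 2 per group; 95% interval 0.58 to 1.94; limma adjusted p = 0.038), 2.39-fold, with an edgeR adjusted p of 0.04. Psat1 (chr19:15905123-15925059), the next enzyme, was at 108 and 115 CPM against 164 and 197 CPM. The groups were clearly apart, with a log2 fold change of 0.68 ± 0.11 (95% interval 0.40 to 0.96; limma adjusted p = 0.024; edgeR adjusted p = 0.028). Without Ctrl 1 the limma adjusted p was 0.23 for Phgdh and 0.19 for Psat1, and without Ctrl 2 it was 0.13 for both. Fold changes stayed between 0.90 and 1.62 for Phgdh and between 0.55 and 0.81 for Psat1 when 1 library was left out.

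Psph, which completes serine synthesis, was at 10.6 and 11.4 CPM in Ctrl against 12 and 15.9 CPM in WC1. Its groups did not overlap, but the difference was mostly that of WC1 2 (0.30 ± 0.15; limma adjusted p = 0.21). It was 0.11 without that library and 0.50 without WC1 1. The mean log2(CPM + 1) of the 3 serine enzymes, a grouping made after the values were seen, was 5.58 ± 0.13 in Ctrl and 6.33 ± 0.32 in WC1 (SD, n = 2). The other 4 genes of the class were nearly level, at 5.42 ± 0.02 and 5.42 ± 0.00, with fold changes from −0.06 to 0.10 on the log2 scale. Asns, asparagine synthetase and a standard readout of ATF4 activity, was at 24.4 and 25.8 CPM in Ctrl against 27.4 and 26.6 CPM in WC1. Its log2 fold change of 0.10 ± 0.08 had an interval from −0.10 to 0.30. The mitochondrial folate enzymes Shmt2 (41.3 and 42.8 CPM against 39.9 and 40.5 CPM) and Mthfd2 (24.8 and 23.9 CPM against 23.4 and 24.4 CPM) had intervals from −0.24 to 0.11 and from −0.23 to 0.17. Aars, alanyl-tRNA synthetase, was between 115 and 119 CPM in every library, with an interval from −0.17 to 0.17.

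Phgdh and Psat1 rose where the adipocyte markers did, and the values were set side by side. Per 1000 CPM of summed adipocyte markers, Phgdh stood at 6.91 and 7.95 CPM in Ctrl against 8.22 and 10.7 CPM in WC1. By the same measure Psat1 stood at 10.5 and 9.98 CPM in Ctrl against 8.91 and 8.38 CPM in WC1. Fabp4 gave the largest part of the summed markers, 5375 and 5561 CPM in Ctrl and 8661 and 10499 CPM in WC1. The outcome depended on the marker. With each of the 10 markers taken alone, the ratio of Phgdh was higher in WC1 without overlap for 7 and overlapped for 3, among them Adipoq and Lep. The ratio of Psat1 was lower for 7, higher for 1 and overlapped for 2. These ratios were not tested.

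The 4 remaining targets of ATF4 and CHOP had a median log2 fold change of 0.32, and the groups did not overlap in any of them, as in 69.3% of all genes. Sesn2 (chr4:132492804-132510456), which restrains mTORC1 when leucine is scarce, was at 16.5 and 20.2 CPM in Ctrl against 26.7 and 28.4 CPM in WC1. The WC1 libraries were close together and above Ctrl, with a log2 fold change of 0.57 ± 0.12 (95% interval 0.26 to 0.87; limma adjusted p = 0.038; edgeR adjusted p = 0.036). The limma adjusted p was 0.22 without Ctrl 1, 0.11 without Ctrl 2 and 0.051 without WC1 2. Trib3, a pseudokinase that curbs AKT signalling, was at 7.74 and 8.09 CPM against 9.8 and 10.3 CPM (0.31 ± 0.10; limma adjusted p = 0.087). On the TPM scale it was called higher (0.43; limma adjusted p = 0.041), with 0.33 relative to the median of all genes there. Chac1 was at 3.77 and 5.06 CPM against 6.26 and 5.27 CPM, with Ctrl 2 and WC1 2 nearly equal (0.33 ± 0.16, and 0.16 without Ctrl 1). Ppp1r15a (GADD34), which brings the phosphatase back to eIF2, went the other way. It was at 36.1 and 37.2 CPM in Ctrl against 31.8 and 24 CPM in WC1, a log2 difference of −0.39 ± 0.14 (adjusted p = 0.11 in limma). The difference was −0.20 without WC1 2 and −0.59 without WC1 1.

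The chaperones and the amino acid genes were then set against each other in each library. The mean log2(CPM + 1) of the chaperones was 8.30 and 8.47 in Ctrl against 8.11 and 8.02 in WC1. That of the amino acid genes was 5.44 and 5.54 in Ctrl against 5.72 and 5.91 in WC1. The gap between the classes was 2.85 and 2.94 in Ctrl against 2.39 and 2.11 in WC1. It was narrower in both WC1 libraries, by 0.65 from means of 2.90 ± 0.06 and 2.25 ± 0.20 (SD, n = 2), a difference larger than the spread within either group. No p is given, because the members are not replicates and the 3 ways of splitting 4 libraries into pairs allow no exact two-sided p below 0.333. The amino acid side of this gap rested on the serine enzymes, and the chaperone side was spread over 14 genes. As medians of the fold changes, the chaperones (−0.33) lay below all genes (−0.02) and the amino acid genes (0.10) above them. The difference of medians, −0.44, was between −0.48 and −0.36 when 1 library was left out, and −0.43 on the TPM scale.

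**Figure D4:**
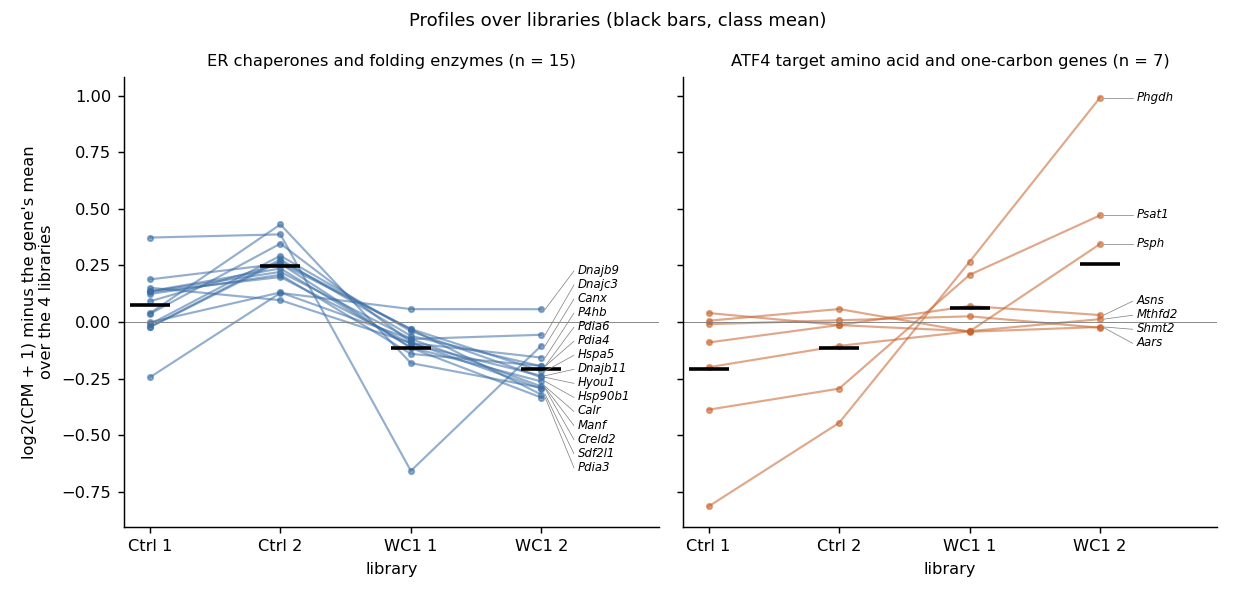
Log2(CPM + 1) of each gene minus its own mean over the 4 libraries (y axis), for the chaperones (left) and the amino acid genes (right); black bars are class means. Most chaperone lines run together, apart from Canx, which dips in WC1 1, and Dnajb9, which is lowest in Ctrl 1, and on the right Phgdh, Psat1 and Psph part from 4 flat lines.

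The difference between chaperones with and without an ERSE was not tested. The 7 with the element had a median log2 fold change of −0.36 and ranged from −0.76 to −0.13, and the 6 without it in the window had a median of −0.29 and ranged from −0.45 to 0.11. Of the 27 other genes with an ERSE, 11 were tested, and their median was 0.19, with 2 called higher by limma, Acacb and Calr4, and 0 lower, beside 10.2% and 7.71% of all genes. Over all 269 tested genes with a CARE, 37 were higher and 21 lower, which is 13.8% and 7.81% beside the same 10.2% and 7.71%, and the median was −0.03.

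Other genes of the same pathways, listed by function, were read from the same fit, and the 3 with the smallest p of each list are named. Of 50 further genes of ER folding, glycosylation and translocation 7 fell and 0 rose. Their median was −0.22, and 42 of 50 were below 0, beside 52.8% of all genes. The share called lower, 14%, stood beside 7.71% of all genes called lower, and the 0 that rose beside 10.2% called higher. Those that fell included Dnajc10, an ER reductase, at 112 and 105 CPM in Ctrl and 80.5 and 74.4 CPM in WC1 (−0.48 ± 0.08; limma adjusted p = 0.024). The oligosaccharyltransferase subunits Ostc (−0.56 ± 0.10) and Ddost (−0.36 ± 0.07) fell too. In the same list edgeR called 6 lower (7.14% of all genes) and DESeq2 17 (12.3%). The replicate block gave 12 (10.6%). On TPM 3 were lower (4.13%) and 1 higher (14.6%). Of 22 further degradation genes 3 fell and 0 rose (13.6%, beside the same 7.71% lower and 10.2% higher). Derl2, a channel-like protein of the ER membrane, was at 93 and 88.3 CPM in Ctrl against 44 and 42 CPM in WC1. Libraries of a group were close. Its log2 fold change was −1.06 ± 0.07 (limma adjusted p = 0.0076). Selk (−0.45 ± 0.07) and Edem2 (−0.47 ± 0.10) fell as well.

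Of 36 further ATF4 targets 4 rose and 3 fell, or 19.4% called beside 17.9% of all genes, with a median of −0.00. Slc7a11, the cystine importer, was at 9.58 and 9.27 CPM in Ctrl against 0.901 and 1.03 CPM in WC1. It was lower in both WC1 libraries, by −2.41 ± 0.11 on the log2(CPM + 1) scale (limma adjusted p = 0.004) and by −3.26 in edgeR, which adds less to low values. On the TPM scale, with means of 1.96 TPM in Ctrl and 0.22 TPM in WC1, it was lower by −1.28. Gdf15, a stress hormone that suppresses appetite, was at 44.8 and 38 CPM against 10.7 and 7.45 CPM (−2.09 ± 0.18; limma adjusted p = 0.012). Cebpb, a transcription factor that pairs with ATF4, was at 70.5 and 73.6 CPM against 39.6 and 43.8 CPM (−0.78 ± 0.08; limma adjusted p = 0.014). The 4 that rose, named after their values were seen, were Slc1a5, a glutamine transporter, at 1.01, Vldlr, a lipoprotein receptor, at 0.89, Stc2 at 0.84 and Eif4ebp1, a repressor of translation, at 0.48. Without Ctrl 1, and likewise without Ctrl 2, 0 of the 166 other pathway genes tested were called by limma.

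**Figure D5:**
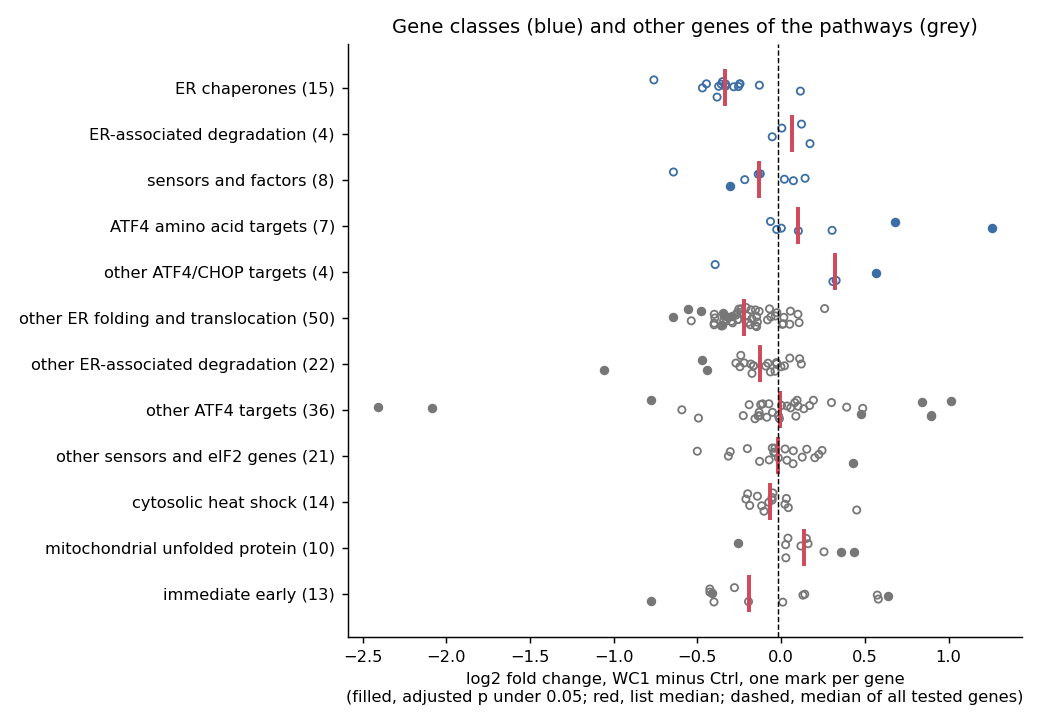
Log2 fold change, WC1 minus Ctrl (x axis), of each gene in the 5 classes (blue) and in 7 lists of other genes (grey), with the list median in red and the median of all tested genes, −0.02, as a dashed line. ER folding genes lie mostly to the left, and ATF4 targets spread from −2.41 for Slc7a11 to 1.26 for Phgdh.

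The counts of the next lists stand beside 10.2% of all genes higher and 7.71% lower. Of 21 further sensors and eIF2 genes tested, Creb3l2, a membrane-bound factor related to ATF6, rose (0.43 ± 0.08; limma adjusted p = 0.034), and 0 fell. Mbtps2, the protease that completes ATF6 cleavage, was at −0.50 ± 0.15, and Map3k5, a kinase downstream of IRE1, at 0.22 ± 0.07, neither called by limma. Ern2 was at 0 in every library. The cytosolic heat shock genes, 14 of them, had a median of −0.06 and 0 calls by limma, edgeR or DESeq2, and 1 was at an unadjusted p under 0.05, Bag3 (−0.21 ± 0.08). Hspb1 (0.45 ± 0.20) and Hsf1 (−0.12 ± 0.09) were not called by limma, edgeR or DESeq2. Hspb1 was called higher with the replicate block (limma adjusted p = 0.019), which called 12.5% of all genes higher. With 1 library left out its fold change ran from 0.22 to 0.69. Hsf1 was at 0.02 on the TPM scale, or −0.08 relative to the median of all genes there. Among 10 mitochondrial chaperones and proteases Lonp1 (0.44 ± 0.07) and Trap1 (0.36 ± 0.08) rose, and Hspe1 (−0.26 ± 0.06) fell. Trap1 and Hspe1 were not called by edgeR (adjusted p of 0.057 and 0.071). Of 13 immediate early genes, which respond to handling of tissue as well as to signals, Btg2 rose (0.63 ± 0.07) and Ier3 (−0.78 ± 0.12) and Klf6 (−0.41 ± 0.08) fell. Over all 166 other pathway genes tested 8 rose and 16 fell, or 14.5% called beside 17.9% of all genes, with a median of −0.08.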

How the data were processed

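Directional poly(A) libraries of epididymal adipose tissue were grouped by their titles, 2 Ctrl and 2 WC1. The submitters' processing notes name fastp, HISAT2, StringTie and the build mm10, without versions, and no source used here gives the annotation or the strand setting. The authors deposited a matrix of CPM, treated as a signal since its columns sum to 97.6% to 105% of 1000000, and a matrix of TPM. In the CPM matrix 100% of values were whole multiples of 1 read, within 0.01 read, and recovered reads totalled 71658062, 90965297, 61655738 and 61465029 for Ctrl 1, Ctrl 2, WC1 1 and WC1 2. At these totals 3 reads were 0.0345 to 0.0492 CPM. Read totals cover counting error only.

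A gene was tested where 2 or more libraries reached 0.5 CPM (14106 genes, with 10315 removed). WC1 minus Ctrl was fitted on log2(CPM + 1) by limma 3.58.1 in R 4.3.3, with an abundance trend, two-sided, and Benjamini-Hochberg adjustment over all tested genes at 0.05. A fold change on this scale understates that of low genes. edgeR 4.0.16 and DESeq2 1.42.0 on recovered reads, TPM, other pseudocounts, filters and scalings, a replicate block and leaving out each library were alternatives. The limma, edgeR and DESeq2 fits were also run on simulated counts with known changes. The outcome is not reported here, and no result rests on it. Promoters and gene positions were those of RefSeq on GRCm38.p6.

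The members, classes and lists were chosen with earlier results of these data known. Named genes were all members and the 3 genes with the smallest p in each other list, and marker lists were summarised. Slc1a5, Vldlr, Stc2, Eif4ebp1, Ern2, Acacb, Calr4, Adam7, Sdc1, Jchain, Adipoq, Lep and Fabp4 were named outside this rule, after their values were seen. The motifs were chosen after the values were seen, and 1 match is not reported here. Genes whose reads overlap another gene or copy are uncertain to that extent.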

Additional observations from a re-analysis of the deposited data

How the results depend on the processing

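Over 15 alternatives the 38 members kept direction and side of the threshold in 507 of 570 values, with 16 losing and 32 gaining a call and 15 changing sign. The 21 genes named as the 3 with the smallest p of each other list kept both in 259 of 315, with 50 losing and 5 gaining a call. Members called higher, 3, became 1 without a filter, 5 on TPM and 1 at an adjusted p under 0.1 with at least 2-fold change, and ranged from 0 to 5 with 1 library left out. Members called lower, 1, became 0 without a filter, on TPM, after quantile normalization, with edgeR and at the 2-fold limit, 10 with DESeq2, 3 with the replicate block, and 0 to 13 with 1 library left out. With median-of-ratios scaling the 1 gene called lower was Dnajb11, and Atf4 was not called. Over all genes, calls went from 1443 higher and 1088 lower to 788 and 532 without a filter, 2054 and 583 on TPM, 2125 and 1736 with DESeq2, and 1769 and 1497 with the replicate block. The limits and the tools differ by construction in the genes tested and the variance model, and the cause of each change was not tested. The median fold change was −0.19 for chaperones and 0.24 for amino acid genes on TPM. On TPM the median fold change of all genes was 0.10, where on CPM it was −0.02. Signs changed on TPM for Dnajc3 (0.0096), Sel1l (0.084), Xbp1 (0.0026), Atf6 (0.014), Shmt2 (0.074), Mthfd2 (0.11) and Hsf1 (0.02). Relative to the TPM median of all genes these were −0.09, −0.02, −0.10, −0.09, −0.03, 0.01 and −0.08, in the same order. After quantile normalization the sign changed for Sel1l (0.014). With 1 library left out, fold changes spanned 0 for Dnajb9 (−0.072 to 0.3), Herpud1 (−0.16 to 0.4), Sel1l (−0.12 to 0.012), Syvn1 (−0.15 to 0.16), Ddit3 (−0.024 to 0.17) and Aars (−0.024 to 0.026). The lone library of a group was then assumed to vary like the other group. Same-numbered libraries deviated with r = 0.194 across genes over 2 pairs, and the labels do not pair them. The block is given as an alternative only.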
